A study of Mus musculus with 10 samples.

Results

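The 363 sites described here were the ATAC-seq peaks of naive CD4 T cells whose mean normalised read count over 5 KO libraries was at least 10 CPM and at least 2 times the mean over 5 WT libraries. They were chosen by these measured values from 61571 nuclear peaks and made up 0.590% of them, or 1.47% of the 24640 peaks that reached the KO level alone. Reversing the groups in the rule gave 36 sites that were less open in KO. CPM, the unit of level used throughout, is the read count of a peak divided by the library's total over nuclear peaks, times 1000000. Because the rule used the KO and WT values, every KO to WT difference at these sites is given as a description, without a test.

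Both groups were CD25-negative, CD44-low naive CD4 T cells. They were sorted from lymph node and spleen of mice carrying Satb1fl/fl and CD4-CreERT2wt/+, with 60000 cells per library. Tamoxifen, an oestrogen receptor ligand, had been given to the mice of the KO group, and the WT group was untreated. Both groups thus carried the floxed alleles and the Cre recombinase, an enzyme whose activity tamoxifen induces. No tamoxifen-treated group with intact Satb1 was analysed here, and loss of Satb1 and exposure to tamoxifen cannot be told apart. The labels do not say which exons are floxed, and the deletion was not checked from these counts. They give no age and do not say that the libraries came from separate mice, so the spread between libraries may be technical. The libraries held 660107 to 2167685 counts in nuclear peaks, and of 20 pairs within a group 8 agreed within sampling noise. In WT these pairs made up a set of 3 and a set of 2 libraries in which every pair agreed, while in KO they linked 4 libraries of which some pairs differed. The rule takes the mean over all 5, so n = 5 is given throughout, and the SD over such libraries may be too small. With linked libraries merged into 2 units per group, the sites took 0.694% and 0.711% of the counts in the KO units. In the WT units they took 0.252% and 0.268%. The same libraries chose the sites, so a higher share in KO follows from the rule.

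ATAC-seq uses a transposase that cuts and tags DNA where nucleosomes leave it exposed, so that reads pile up at active promoters and enhancers. SATB1 is a nuclear protein of thymocytes and T cells that binds AT-rich DNA and takes part in chromatin looping and in the recruitment of chromatin-modifying enzymes. Per its title, the series concerns the control of Il2 by Satb1 early in Th17 differentiation. In bulk cells, a higher count at a site from more cells in which it is open and from more cutting per cell cannot be told apart.

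The letters of some promoters are shown because the opened sites in or beside them are those nearest to gene starts. Of the 363 sites, 11 overlapped a RefSeq promoter window (GRCm38.p6, the assembly of mm10), and 4 windows are printed for the 250 bases before a start site or for the part inside the opened site. Il2 is printed because both of its opened sites border this window, Gm33332 because the site over it had the highest ratio after Il2, and H3c4 and Rnf135 as a histone gene and a ubiquitin ligase gene. Capitals mark matches to any of 12 motifs, searched on both strands.
Il2, chr3:37125955-37126204, minus strand: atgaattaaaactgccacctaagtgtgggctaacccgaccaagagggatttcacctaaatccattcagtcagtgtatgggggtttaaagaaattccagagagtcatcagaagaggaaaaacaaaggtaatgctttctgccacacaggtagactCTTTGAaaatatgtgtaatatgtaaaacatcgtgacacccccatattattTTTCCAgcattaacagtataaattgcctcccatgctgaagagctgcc
Gm33332, chr10:19718808-19719034, minus strand: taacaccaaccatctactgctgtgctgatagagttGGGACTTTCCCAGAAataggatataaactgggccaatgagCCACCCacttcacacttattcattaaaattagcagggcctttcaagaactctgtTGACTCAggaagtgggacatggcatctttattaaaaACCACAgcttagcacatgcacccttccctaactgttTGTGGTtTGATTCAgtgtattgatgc
H3c4, chr13:23575665-23575762, plus strand: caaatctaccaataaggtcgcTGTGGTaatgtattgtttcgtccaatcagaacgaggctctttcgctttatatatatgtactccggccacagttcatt
Rnf135, chr11:80183698-80183868, plus strand: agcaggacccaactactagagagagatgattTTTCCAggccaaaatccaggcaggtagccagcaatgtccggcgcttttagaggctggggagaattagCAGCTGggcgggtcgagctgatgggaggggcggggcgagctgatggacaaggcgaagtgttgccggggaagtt

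In the Il2 window the capitals are CTTTGA (TCF/LEF), beginning 97 bases before the start site, and the reverse complement of TGGAAA (NFAT), 47 bases before it. Both matches lie between the opened sites, outside either of them, since the sites share only 24 and 27 bases with the 250 of the window. CTTTGA was in 13.8% and TGGAAA in 18.6% of all 32817 promoter windows. The printed part of the Gm33332 window held TGANTCA (AP-1) in 2 places and TGTGGT (RUNX) in 2 places. It also held 1 match each to CCACCC (KLF), TTCNNNGAA (STAT) and the NF-kB motif (GGGA, any base, TTTCC). The NF-kB and STAT matches overlapped. TGANTCA was in 6.75% of all windows, TGTGGT in 14.04%, CCACCC in 28.1%, TTCNNNGAA in 7.01% and the NF-kB motif in 0.357%. The printed part of the H3c4 window held TGTGGT once, and that of the Rnf135 window held TGGAAA and CAGCTG (E protein, in 13.0% of all windows). Of the other motifs searched, CCGGAA (ETS) was in 12.02% of all windows and AGATAA (for GATA factors) in 9.99%. The motif of IRF factors, GAAA on both sides of any 2 bases, was in 2.97%. The palindrome of the oestrogen receptor was in 0.0640%. None of these was in the 4 printed stretches. Those of Gm33332, H3c4 and Rnf135 are 227, 98 and 171 bases long, shorter than the 250 of a window. The shares over all windows are therefore not for stretches of these lengths. A match is a run of letters and not a measured binding site. The site over Gm33332 is annotated to an exon of Il20ra, a receptor chain of the IL-10 cytokine family, and had 40.9 ± 8.02 CPM in KO and 6.60 ± 4.44 in WT (SD, n = 5). At H3c4, a histone gene for which the nearest annotated gene is the histone gene H2ac7, the values were 11.01 ± 1.43 and 3.55 ± 1.95 CPM. At Rnf135 they were 19.5 ± 4.28 and 7.77 ± 0.666 CPM. At these 3 sites every KO library lay above every WT library.

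Most opened sites lay outside promoters and were of moderate level. The KO mean ran from 10.0 to 67.1 CPM with a median of 16.4, and the WT mean from 0.845 to 28.7 CPM with a median of 5.73. The ratio of the KO to the WT mean had a median of 2.56 and lay from 2 to under 3 in 238 sites, from 3 to under 5 in 91, from 5 to under 10 in 28 and at 10 or more in 6. In WT 11 sites had a mean under 2 CPM, 137 under 5 CPM and 300 under 10 CPM. A site rested on 60 to 489 counts over the KO libraries together and on 7 to 237 over the WT libraries. The median coefficient of variation among KO libraries was 19.8%. Every KO library lay above every WT library at 323 of the 363 sites, as it did at 2.16% of all nuclear peaks. The quasi-likelihood test of edgeR, fitted to all peaks with enough counts, called 346 of the 349 sites tested higher in KO and none lower, against 2.96% of all 34695 tested peaks. Nothing is read from these 2 counts, since the rule used the same libraries.

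**Figure D1:**
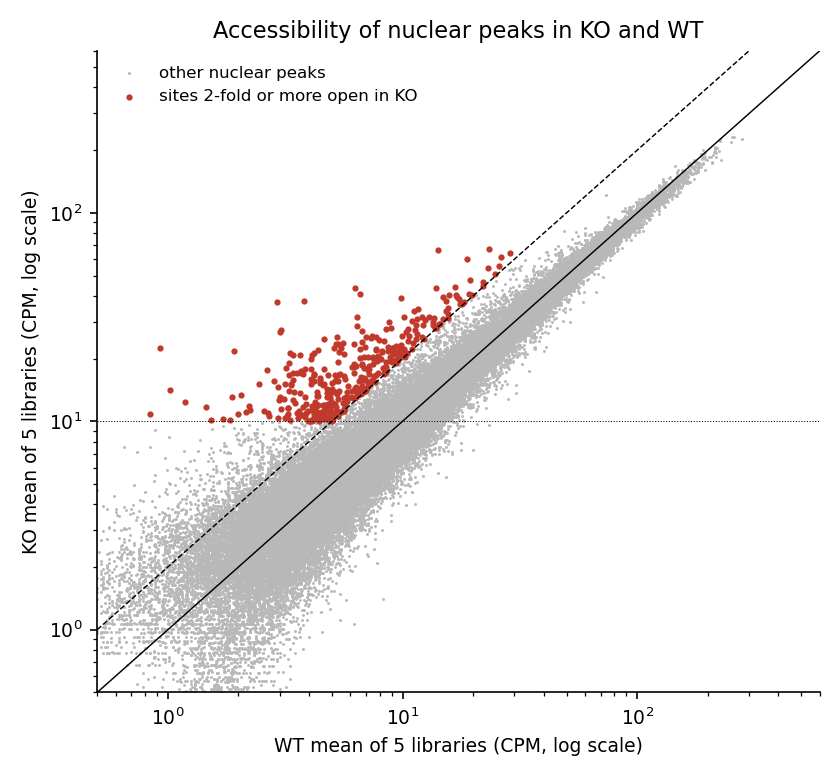
Mean CPM of each nuclear peak over 5 WT libraries (horizontal, log scale) against 5 KO libraries (vertical, log scale), for peaks with both means at 0.5 or more. The solid line marks equal means, the dashed line a ratio of 2 and the dotted line a KO mean of 10, and the 363 chosen sites (red) reach a KO mean of 67.1 while the strongest peaks of these cells lie along the solid line.

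Around the thresholds the values ran on without a gap. The chosen sites with the lowest ratios were annotated to Mir6395 (2.00), Aftph (2.00) and Samd13 (2.00), and the peaks just outside to Anxa6 (2.00), Filip1l (2.00) and Rras2 (2.00). Before rounding the last 3 were under 2. A ratio under 2.1 was found at 48 chosen sites, and 62 peaks at the KO level had a ratio from 1.9 to under 2. At the level threshold the lowest KO means inside belonged to Ttc7b (10.0 CPM), Aftph (10.0) and Abi1 (10.0), and those just outside to 5031425F14Rik (9.94), Arhgap5 (9.92) and Ptprj (9.90).

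Il2, the gene of the T cell growth factor interleukin-2, had opened sites on both sides of its proximal promoter. The upstream site, chr3:37126181-37126516, lies 227 bases before the start site and shares 24 bases with the printed window. It read 24.7, 18.4, 34.8, 27.8 and 28.6 CPM in KO libraries Sample_2268_KO to Sample_2272_KO, and 2.97, 2.56, 1.94, 3.24 and 4.34 CPM in WT libraries Sample_2273_WT to Sample_2277_WT. All KO libraries were above all WT libraries, and the ratio of means was 8.92. The second site, chr3:37125695-37125981, covers the start site and shares 27 bases with the window. Its KO values were 21.1, 24.1, 24.2, 19.5 and 17.99 CPM, and its WT values 5.94, 5.64, 3.88, 6.47 and 4.96 CPM. Here too the groups did not overlap, and the ratio was 3.98, with a higher WT level than upstream. Of the 18 genes of the IL-2 signalling list, which holds the receptor chains, the JAK and STAT proteins and their targets, Il2 alone had opened sites. They were 2 of the list's 162 peaks, or 1.23% against 0.590% of all peaks. The median log2 ratio of the list's peaks reaching the lowest mean of an opened site (5.83 CPM over 10 libraries) was -0.01. That of all such peaks was 0.00. This limit has no upper end, so stronger peaks count too.

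Satb1 itself had 1 opened site, in intergenic DNA (chr17:51732582-51732928) 100362 bases from the annotated start. It read 37.1, 29.0, 34.8, 30.7 and 27.2 CPM in KO and 9.90, 16.4, 13.1, 12.3 and 13.0 CPM in WT. The groups did not overlap, and the ratio was 2.45.

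The highest ratios belonged to sites that were nearly closed in WT. The site in intron 14 of 16 of Camk2d (chr3:126825005-126825266), the delta subunit of calcium/calmodulin-dependent kinase II, read 27.7, 9.66, 21.2, 29.7 and 24.0 CPM in KO. In WT it read 0.990, 2.05, 0.969, 0 and 0.621 CPM, where the 0 of library Sample_2276_WT allows up to 1.94 CPM (3 counts, for counting error only). KO library Sample_2269_KO was low, yet above every WT library, and the ratio of 24.2 rested on 8 WT counts in all. Thinning all libraries at random to the smallest total, drawn only once, gave 39.5. The other sites with a ratio of at least 10 were annotated to Gm20740 (13.98), Tm2d1 (12.9), Dtd2 (12.8), Rexo5 (11.4) and Epsti1 (10.4). Dtd2 encodes a D-aminoacyl-tRNA deacylase, Rexo5 an RNA exonuclease and Epsti1 an interferon-inducible protein. At Tm2d1 the means were 37.5 ± 3.77 and 2.91 ± 2.26 CPM, which is the largest difference in CPM among these 6. The Dtd2 site had 10.8 ± 1.07 and 0.845 ± 0.844 CPM. The Rexo5 site, in an exon, had 21.8 ± 4.38 and 1.92 ± 1.77 CPM, and its ratio was 17.2 without WT library Sample_2276_WT. The intronic Epsti1 site had 12.3 ± 4.22 and 1.185 ± 0.744 CPM. In the same random draw the ratios were 41.3 at Tm2d1 and 40.03 at Epsti1. These sites had only 22 and 10 WT counts before thinning, so such ratios are uncertain.

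Among the next highest ratios of named genes were those of sites annotated to Bcl2l11, Ptprc and Tnfsf18. The site annotated to Bcl2l11, the gene of the pro-apoptotic protein BIM, lies in intron 14 of 17 of the neighbouring gene Acoxl (chr2:128060843-128061263), 64775 bases from the Bcl2l11 start. Its KO values were 40.8, 31.9, 42.4, 42.4 and 31.8 CPM and its WT values 3.96, 3.08, 6.30, 3.24 and 2.48 CPM. The ratio was 9.93 without overlap of the groups. The site 10613 bases upstream of Ptprc (chr1:138185918-138186255), which encodes the receptor phosphatase CD45, read 21.8, 34.8, 33.3, 25.8 and 21.7 CPM in KO and 1.98, 2.56, 2.91, 6.47 and 1.24 CPM in WT. WT library Sample_2276_WT was the highest of its group, and still far under the lowest KO library, with a ratio of 9.06. The site 14302 bases upstream of Tnfsf18, the gene of the GITR ligand, read 43.7, 32.8, 51.5, 49.2 and 41.1 CPM in KO and 5.94, 5.64, 9.69, 6.47 and 3.72 CPM in WT, a ratio of 6.93. The other sites among the 12 highest ratios of named genes were annotated to Ppp1r3b, a glycogen-targeting subunit of protein phosphatase 1 (8.08), to Med30, a Mediator subunit (6.95, or 10.5 when thinned), and to Mllt3, a transcription elongation factor (6.70).

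**Figure D2:**
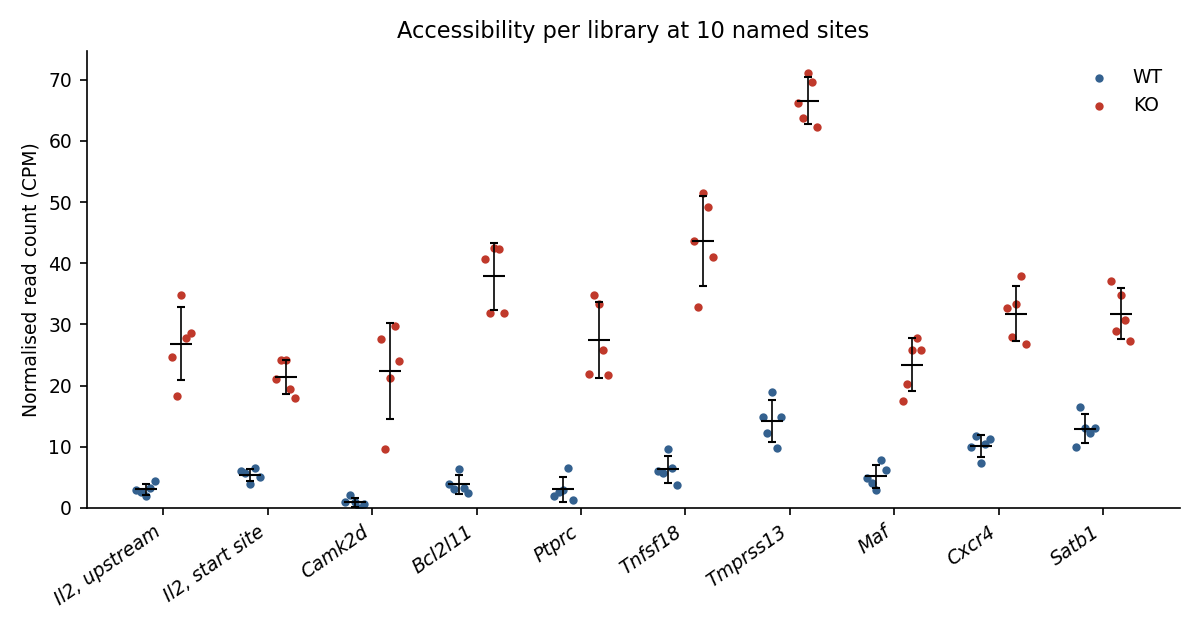
Normalised read count (CPM, vertical) of 10 named sites in each of the 5 WT (blue) and 5 KO (red) libraries, with bars for the mean and SD. At each of the 10 sites the lowest KO library lies above the highest WT library, and at Camk2d KO library Sample_2269_KO (9.66 CPM) stands below the other KO libraries.

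Genes of the helper T cell programmes had opened sites in each programme, all of them outside promoters. Of the Th2 list 5 of 111 peaks were opened sites (4.50%), of the Tfh list 5 of 172 (2.91%), of the Th17 list 4 of 153 (2.61%), of the Th1 list 2 of 94 (2.13%) and of the Treg list 1 of 91 (1.10%). The share was 0.590% over all nuclear peaks, and the lists were chosen with earlier results of these data known. The median log2 ratio was taken over list peaks reaching the lowest mean of an opened site. It was 0.07 in the Th2 list, 0.05 in the Tfh, 0.01 in the Th17, -0.01 in the Th1 and 0.08 in the Treg list. The peaks of these genes were therefore centred near a ratio of 1, with a few opened sites among them.

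Maf encodes c-Maf, a transcription factor of Th2, Th17 and Tfh cells, and counts in both the Th2 and the Th17 list. Its site, 199768 bases from the start (chr8:115506750-115507126), read 17.5, 20.3, 25.8, 27.8 and 25.8 CPM in KO and 4.95, 4.10, 2.91, 7.77 and 6.21 CPM in WT, a ratio of 4.51. Gata3, the master regulator of Th2 cells, had 2 sites. The site in intron 3 of 5 (chr2:9872839-9873037) read 17.5, 16.4, 16.7, 23.4 and 20.3 CPM in KO and 5.94, 6.67, 8.24, 4.53 and 5.59 CPM in WT. Neither of these sites showed overlap, and the Gata3 intron had a ratio of 3.04. The more distant Gata3 site had a ratio of 2.13. Dusp6, a phosphatase of ERK kinases, had 2 sites with ratios of 2.47 and 2.16, the first in an intron of the neighbouring gene Poc1b and the second with overlap of the groups.

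In the Th17 list the other sites were annotated to Il6st, Basp1 and Il1r1. Il6st encodes gp130, the signalling chain of the IL-6 receptor, and its intergenic site had 25.04 ± 5.36 CPM in KO and 7.33 ± 2.70 in WT. Basp1, a membrane-bound signalling protein, had 12.1 ± 5.97 and 3.88 ± 2.35 CPM. Il1r1, the IL-1 receptor, had 11.4 ± 2.76 and 4.92 ± 1.83 CPM in its first intron. Of the Th1 list only Ifng, the gene of interferon gamma, had opened sites, both upstream and together spanning 6.26 kb. The nearer had a ratio of 3.40 (13.1 ± 3.76 against 3.85 ± 1.55 CPM), and the farther one of 2.69 (20.2 ± 4.55 against 7.50 ± 1.31 CPM).

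The Tfh list held Cxcr4, Icos, Bcl6, Pou2af1 and Slamf6. The Cxcr4 site, 112778 bases upstream of this chemokine receptor gene (chr1:128705077-128705587), read 32.7, 28.0, 33.3, 38.0 and 26.8 CPM in KO and 9.90, 11.8, 7.27, 10.4 and 11.2 CPM in WT, a ratio of 3.15. Icos encodes a co-stimulatory receptor, and its site downstream of the gene start had 12.3 ± 2.21 against 3.49 ± 1.94 CPM. Bcl6, the master regulator of Tfh cells, had 11.7 ± 2.03 against 4.26 ± 1.28 CPM at a site 198639 bases upstream. Pou2af1, a transcriptional coactivator, had 21.5 ± 6.21 against 8.16 ± 3.02 CPM, and Slamf6, a receptor of the SLAM family, 22.2 ± 1.30 against 10.2 ± 3.45 CPM. The Treg list and the inhibitory receptor list shared their only opened site, 9927 bases upstream of Ctla4, with 27.6 ± 2.66 against 11.3 ± 2.13 CPM. Ratios close to the threshold went under 2 without 1 library. This held for Slamf6 (1.97 without WT library Sample_2273_WT), the distant Gata3 site (1.86 without the same library) and the second Dusp6 site (1.86 without KO library Sample_2270_KO, 1.96 without WT library Sample_2275_WT).

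Genes that mark naive and resting T cells had a median log2 ratio of 0.00 over peaks reaching the lowest mean of an opened site. They held 9 opened sites among 516 peaks (1.74%). Il7r, which encodes the alpha chain of the IL-7 receptor, had 3 of them, Satb1 1, and Btg1, Ets1 and Ikzf1 1 each. The strongest ratio at Il7r was at a site in an intron of the neighbouring gene Spef2, which read 11.6, 10.6, 9.09, 14.1 and 8.77 CPM in KO and 0.990, 1.54, 0.969, 6.47 and 0 CPM in WT. WT library Sample_2276_WT stood apart from its group, and the ratio of 5.44 was 12.4 without it. The site in intron 2 of 7 of Il7r had a ratio of 3.74 with overlap, KO library Sample_2270_KO being at 4.54 CPM (3 counts). The third had a ratio of 2.04, also with overlap, and without WT library Sample_2274_WT it was 1.74. Thinned to the smallest total, the third gave 3.23. Ikzf1, the transcription factor Ikaros, had 31.4 ± 7.79 against 13.6 ± 2.84 CPM at a site 6633 bases upstream. Btg1, an anti-proliferative gene, had 22.3 ± 4.34 against 7.71 ± 0.652 CPM. The Ets1 site had a ratio of 2.21, or 1.86 when thinned. The T cell identity list held 2 opened sites among 143 peaks (1.40%), 1 of them annotated to Thy1, a surface glycoprotein (21.0 ± 3.998 against 9.09 ± 2.06 CPM).

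The list of chromatin organisers and SATB1 partners had a median log2 ratio of 0.08 over peaks reaching the lowest mean of an opened site. Of its 166 peaks 5 were opened sites (3.01%). They were the Satb1 site, 1 site of the cohesin subunit gene Stag1 (12.9 ± 1.96 against 5.65 ± 0.634 CPM) and 3 of Arid5b, a DNA-binding cofactor of a histone demethylase. The strongest Arid5b site, in intron 2 of 8 (chr10:68192726-68193224), read 34.9, 43.5, 36.4, 41.9 and 39.7 CPM in KO and 10.9, 9.23, 7.75, 9.06 and 12.4 CPM in WT. The KO libraries lay close together and far above WT, with a ratio of 3.98. Another site in an Arid5b intron is annotated to Rtkn2, its neighbour, and had 47.6 ± 6.16 against 19.5 ± 2.12 CPM. The 4 sites span 88.0 kb and have ratios of 2.45 to 3.98.

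The activation and memory list, with genes such as Cd69, Nr4a1, Egr2 and Tnf, had no opened site among 171 peaks, and the oestrogen receptor response list none among 39. With 0.590% of all peaks opened, lists of this size would hold few or none, and nothing is read from these zeros. The T cell receptor signalling and calcium list had 2 of 340 (0.588%), the sites of Camk2d and Ptprc. The BCL-2 family (1 of 97), the TNF superfamily (1 of 87) and the interferon response list (1 of 59) had the Bcl2l11, Tnfsf18 and Epsti1 sites. No opened site was annotated to a marker of B cells (11 peaks), myeloid cells (22), NK and innate lymphoid cells (31), CD8 T cells (31) or erythroid and stromal cells (25), lists too short to read at that share. Prf1, in both the NK and the CD8 list, held 1 of the 36 sites that were less open in KO.

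The highest KO levels were at sites of genes outside the lists. The site 1877 bases from the start of Slc38a1, a glutamine transporter gene, read 67.7, 66.6, 66.7, 74.0 and 60.4 CPM in KO and 18.8, 21.5, 25.2, 28.5 and 23.0 CPM in WT, a ratio of 2.87. The intergenic site of Tmprss13, a membrane serine protease, read 66.2, 63.7, 71.2, 69.6 and 62.3 CPM in KO and 14.9, 12.3, 18.9, 9.71 and 14.9 CPM in WT, a ratio of 4.71. Both had KO libraries within a narrow range and no overlap with WT. Next came an intronic site of the vesicle transport gene Vps45 (64.0 ± 8.63 against 28.7 ± 3.75 CPM), a site of Mppe1 (61.8 ± 8.13 against 26.3 ± 4.58 CPM) and one of the mono-ADP-ribosyltransferase gene Parp11 (54.2 ± 3.49 against 23.2 ± 1.42 CPM). Sites annotated to Mir6395, Rtkn2 and Rph3al completed the 8, with ratios of 2.06, 2.45 and 2.12. Their WT means of 19.5 to 24.8 CPM were well above the median of the opened sites. The Mir6395 ratio was 1.89 without WT library Sample_2276_WT, and the Rph3al ratio 1.88 with libraries within sampling noise merged.

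Few of the opened sites were promoters. Of the 363 sites 28 (7.71%) lay within 1 kb of a start site, while this class held 31.2% of all nuclear peaks, and 39.5% of the 36457 peaks whose mean over 10 libraries reached the lowest such mean of an opened site (5.83 CPM). Introns held 162 sites (44.6%, against 30.2% and 25.2%), and distal intergenic DNA 125 (34.4%, against 26.2% and 21.8%). Exons held 9 sites, 3' UTRs 8, 5' UTRs 3 and the regions just downstream of genes 2. Outside promoters of up to 3 kb lay 309 sites (85.1%, against 63.4% and 54.5%). The median ratio was 2.46 in promoters within 1 kb, 2.59 in introns, 2.63 in distal intergenic DNA, 3.27 in exons and 3.79 in 5' UTRs, values that the minimum of 2 in the rule holds from below.

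**Figure D3:**
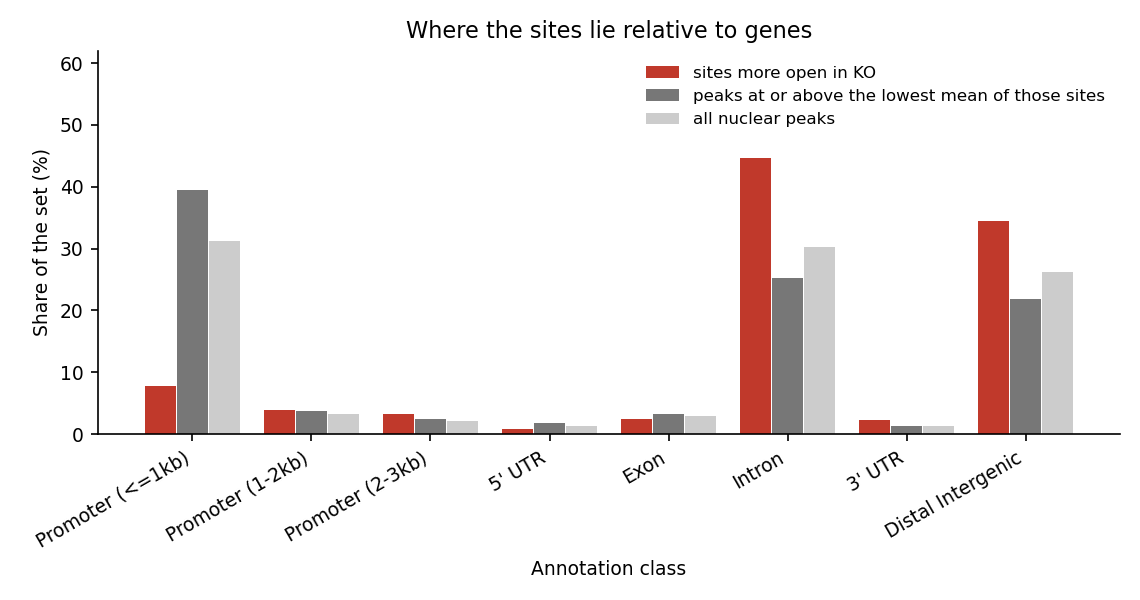
Share (%, vertical) of the 363 opened sites (red), of the 36457 peaks at or above their lowest mean level (dark grey) and of all 61571 nuclear peaks (light grey) in 8 annotation classes, with the downstream classes left out. Promoters within 1 kb take 7.71% of the opened sites and 31.2% of all peaks, and introns 44.6% and 30.2%.

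Besides Il2, the promoters of named genes with the highest ratios were those of Lrp10, Ogt, Creb3l1, Lats2 and Sgsh. The Lrp10 site, 487 bases upstream of this lipoprotein receptor gene, read 19.6, 22.2, 19.7, 22.4 and 19.8 CPM in KO and 4.95, 4.10, 2.91, 3.24 and 3.10 CPM in WT. Its KO libraries were the most alike among the 8 promoter sites of highest ratio (SD 1.42 CPM), and the ratio was 5.67. The site of Ogt, the O-GlcNAc transferase, had 16.7 ± 3.87 against 3.28 ± 1.35 CPM. That of Creb3l1, a membrane-bound transcription factor, had 12.7 ± 2.58 against 3.00 ± 0.996 CPM. Lats2, a kinase of the Hippo pathway, had 22.4 ± 1.86 against 5.48 ± 2.47 CPM, and a second opened site within 33.9 kb. The ratio at Sgsh, a lysosomal sulphatase, was 3.58. None of these 8 promoter sites showed overlap of the groups.

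The sites were spread over the genome and lay farther from starts than nuclear peaks as a whole. The median distance to the annotated start was 27773 bases, against 10246 over all nuclear peaks. It was 5259 over the 36457 peaks reaching the lowest mean of an opened site. That set has no upper limit, so it also holds peaks stronger than any opened site. Of that set 39.5% were promoters within 1 kb. The start site itself was covered by 6, and 22 others lay within 1 kb, 81 at 1 to 10 kb, 134 at 10 to 50 kb, 60 at 50 to 100 kb and 60 beyond. Upstream of the start lay 149 and downstream 208. Of the intronic sites 50 of 162 (30.9%) were in a first intron, against 35.2% of all intronic peaks. In 53 of the 156 intronic sites with a named host gene, the host was another gene than the annotated nearest one, as for Bcl2l11 and Acoxl. The nearest gene is a label of position, and whether a site acts on it was not tested. The opened sites were also wider, with a median of 269 bases against 164 over all peaks. Their median was close to the 258 of peaks reaching their lowest mean.

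Most opened sites stood alone. The sites were annotated to 326 genes, of which 295 had 1 site, 26 had 2 and 5 had 3 (Il7r, Slc38a1, Arid5b, Klrb1b and Zfp608). Another opened site lay within 50 kb of 58 sites (15.98%), while 4.88% of the other nuclear peaks had an opened site that near. Within 1 kb the shares were 4.96% and 0.309%. The 58 formed 27 groups, 24 of them pairs, and in 13 groups no other peak lay between the opened sites, and whether such a group is 1 open region was not tested. The largest group was that in Arid5b. The 3 sites annotated to Klrb1b, of the NKR-P1 family of lectin-like receptors, lie within 20.3 kb. They had ratios of 2.22 to 2.93, in a region of 11 peaks. A pair of them lies 87 bases apart, and the third is in an intron of the neighbouring gene BC035044. The 3 Il7r sites span 71.4 kb with 17 peaks. At Slc38a1 2 sites in the 3' UTR lie within 0.588 kb of each other with ratios of 3.78 and 2.06, far from the third. The lower of these was 1.87 without KO library Sample_2269_KO. The 3 sites of Zfp608, a zinc finger gene, had ratios of 2.29 to 3.45 and lie far apart. The median distance from an opened site to the next was 907 kb.

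Beyond 1 kb, peaks around the opened sites had median ratios close to 1, while those within 1 kb had a median of 1.12. Among the other peaks with a mean of at least 5 CPM, the 116 within 1 kb of an opened site had a median KO to WT ratio of 1.12 (log2 0.17, quartiles -0.05 to 0.52), and 14 of them were called higher by edgeR (12.1%). At 1 to 5 kb the median was 1.03 over 223 peaks with 2.24% called, and at 5 to 20 kb 1.02 over 699 peaks with 4.72% called. Beyond 100 kb it was 0.995 over 36206 peaks with 1.55% called. Of these far peaks 48.6% were higher in KO, against 67.2% of those within 1 kb. Since the opened sites themselves were left out, a peak with a KO mean of at least 10 CPM could not reach a ratio of 2 here. The promoters of the annotated genes also had ratios close to 1. For 184 genes with an opened site outside the promoter and promoter peaks of at least 5 CPM, the summed promoter ratio had a median of 1.02 (quartiles 0.946 to 1.08), against 0.992 (0.934 to 1.06) over 9915 genes.

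**Figure D4:**
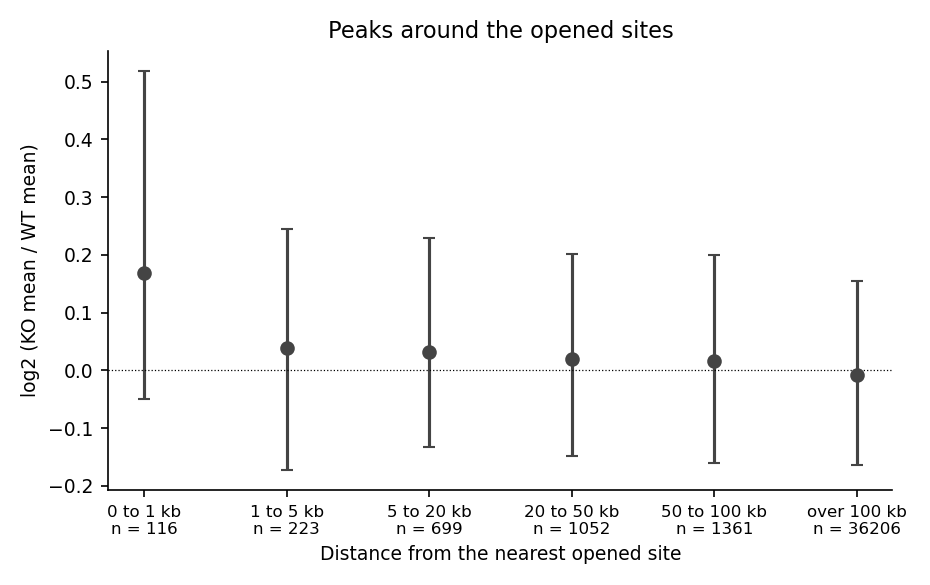
Median log2 ratio of KO to WT mean (points, vertical) with quartiles (bars) of peaks that are not among the opened sites and have a mean of at least 5 CPM, by distance from the nearest opened site. The median is 0.17 within 1 kb and lies between -0.01 and 0.04 in the other distance classes.

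To read the difference in libraries that took no part in the choice, the rule was applied with each library left out, and the left-out library was then read at the sites so chosen. These sets held 359 to 396 sites. The summed CPM of the left-out library, relative to the mean of the other WT libraries at the same sites, was 2.59, 2.52, 2.59, 2.79 and 2.54 for the KO libraries, or 2.61 ± 0.109 (SD, n = 5). It was 1.03, 1.14, 1.11, 1.06 and 1.06 for the WT libraries, or 1.08 ± 0.0430. All left-out KO values were above all left-out WT values. The WT libraries in the denominator did take part in the choice, in which a low WT mean favours a site, so a library without a difference can read above 1, as the left-out WT libraries did. A left-out library may also be a technical repeat of those used, as noted for the linked libraries. Site by site, the left-out library was nearer to its own group than to the other, on a log scale, at 90.6 ± 3.83% of sites for KO and 90.6 ± 1.20% for WT. The lowest share, 85.1%, was that of KO library Sample_2270_KO, which has the fewest counts. These 10 readings share the other 9 libraries and carry no test. In the full set the sites took 0.703%, 0.694%, 0.717%, 0.746% and 0.682% of the counts in KO and 0.245%, 0.272%, 0.264%, 0.254% and 0.255% in WT. These shares come from the libraries used in the choice.

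**Figure D5:**
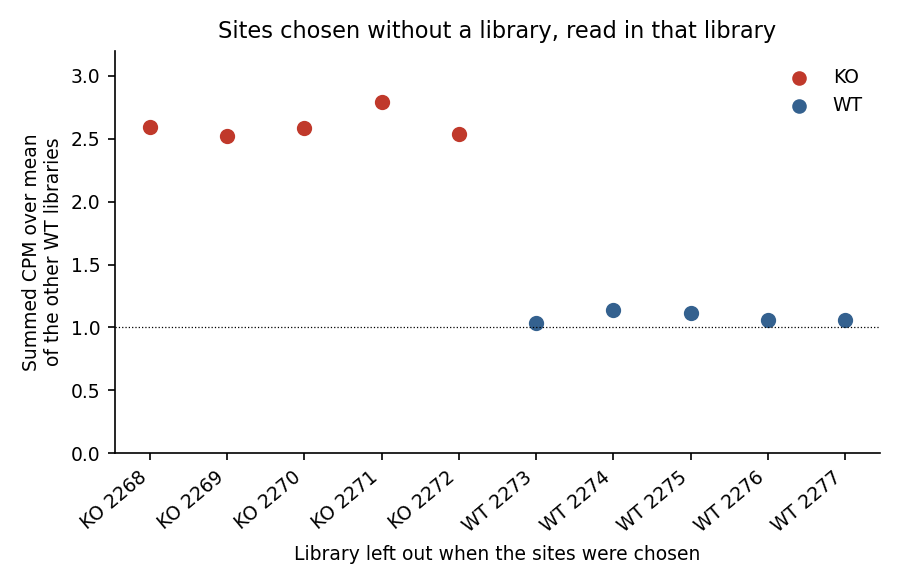
Summed CPM at sites chosen without a library, read in that library and divided by the mean of the other WT libraries (vertical), for each of the 10 libraries (horizontal). The 5 KO libraries lie between 2.52 and 2.79 and the 5 WT libraries between 1.03 and 1.14.

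Levels of the marker lists were read beside the sites. Summed over promoter peaks, T cell identity genes (14 of 15 with a promoter peak) had 450 to 513 CPM in KO and 472 to 503 in WT. The B cell list had a promoter peak at 1 of 10 genes, Cr2, with 4.37, 4.83, 12.1, 11.2 and 12.5 CPM in KO and 6.93, 4.62, 5.33, 5.83 and 6.83 CPM in WT. The mean was higher in KO (8.99 against 5.91 CPM), where 3 libraries lay above every WT library and 2 did not. The B cell list's 5 peaks reaching the lowest mean of an opened site, in promoters or elsewhere, had a median log2 ratio of -0.23. The Igh locus was chosen after values were seen, and 4 of its 102 peaks are opened sites. Its summed peaks, 858 ± 47.1 CPM in KO and 626 ± 39.0 in WT, did not overlap. The 98 other peaks together had 785 ± 43.8 CPM in KO and 604 ± 39.6 in WT. The part of B cells in the results was not tested. Defining B cell genes such as Cd79a and Ms4a1 had no promoter peak. The ranges of KO and WT were 47.0 to 73.4 and 56.5 to 86.7 CPM for the myeloid list (4 of 12 genes), 64.7 to 87.7 and 65.8 to 88.2 for NK and innate lymphoid cells (4 of 11), 82.1 to 109 and 88.7 to 105 for CD8 T cells (4 of 7), and 143 to 191 and 146 to 168 for erythroid and stromal cells (5 of 11). The ranges of KO and WT overlapped in all 6 lists.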

How the data were processed

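ATAC-seq reads of 10 libraries (single reads of 75 bp) were processed by the submitters. Per the submitters' processing notes the tools include Trimmomatic 0.36, Bowtie2 2.3.5, Picard, MACS2 2.1.2 and ChIPseeker 1.18.0, and the build is mm10. The authors deposited raw read counts per peak for 61581 peaks and an annotation table giving class, nearest gene and distance. Whether peaks were called on pooled libraries, and how reads were shifted, are points not given in the sources used here. The 10 mitochondrial peaks were left out, since they bear on library totals. Missing symbols were filled from RefSeq gene numbers (68 of the 363 sites, with 294 named as deposited and 1 unnamed).

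The test across peaks was edgeR 4.0.16 (quasi-likelihood, TMM scaling, filterByExpr, Benjamini-Hochberg adjusted p under 0.05) in R 4.3.3, tested on simulated data, without covariates. Pairs of libraries were compared by a chi-square test over peaks with at least 20 counts in the pair. Named sites were Il2 and Satb1 sites, the 12 highest ratios and the 8 highest KO means (1 per gene), the 8 highest promoter ratios (both Il2 sites among them), sites of listed genes, and genes with at least 3 sites, without Gm, LOC, Rik and unnamed genes. The sites, lists and rules were chosen with earlier results of these data known. Values of some genes that these rules name are not reported here, though counts include them. Gene names and promoter sequences come from RefSeq (GRCm38.p6). Alternatives are given in the closing section.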

Additional observations from a re-analysis of the deposited data

Results flagged for a closer look

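Among 146 groups of 5 values, the highest or lowest library stood far from the others in 6 by Dixon's test, where chance flags about 1 in 20 groups. The site in intron 2 of Il7r read 4.54 CPM in KO library Sample_2270_KO against a median of 15.0 in the other KO libraries. At the Il7r site in Spef2 WT library Sample_2276_WT read 6.47 CPM against 0.980. The Bcl6 site read 15.3 CPM in KO library Sample_2268_KO against 10.7. An Arid5b site (ratio 2.50) read 1.86 CPM in WT library Sample_2277_WT against 5.79. The summed peaks of the Tra and Trd locus read 1101 CPM in KO library Sample_2269_KO against 465, and the 2 peaks of the Igk locus 8.69 CPM in WT library Sample_2277_WT against 1.24.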

How the results depend on the processing

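Level and fold set the number of sites. A level minimum of 5 CPM gave 798 and of 20 CPM 131, and a fold of 1.5 gave 1067 and of 3 gave 125. With a fold of 3, 89.6% lay outside promoters. Another site within 50 kb was found for 21.7% (5 CPM), 9.16% (20 CPM), 29.2% (fold 1.5) and 8% (fold 3) of the sites, and for 7.71% within 10 kb and 21.2% within 100 kb. Leaving out each library gave 359 to 396 sites, 84.8% to 86.1% outside promoters and 14.9% to 16.6% with a neighbour, and 251 of the 363 sites were chosen in all 10 cases. TMM scaling gave 351, DESeq2 size factors 355, group medians 408, merging of libraries within sampling noise 421 (303 shared) and thinning to the smallest total 480 (298 shared).

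Over all peaks edgeR called 1027 higher and 322 lower, DESeq2 478 and 41, and limma-voom 998 and 271. Thinned libraries gave 226 and 40, with 112 of the 363 sites called, and fewer peaks were tested (17996). Merged libraries gave 163 lower. Leaving out each library gave 782 to 1063 higher, 248 to 352 lower and 343 to 357 of the sites. Of 924 recomputed ratios of the 66 named sites 0 reversed, 26 were under 2 (9 sites), and 7 moved by more than 1.5 times. No paired analysis was possible because the replicate numbers differ between the groups. The depth limits sites with few WT counts, where ratios are uncertain.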

Other observations

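The heavy chain V region was not among the lists and was chosen after values were seen. Of 102 peaks in the Igh locus 4 were opened sites, all on V segments (Ighv8-5, Ighv1-49, Ighv1-61 and Ighv1-66), although the annotation names microRNA genes far away for them. Ighv1-49 had 25.5 ± 3.40 CPM in KO and 6.97 ± 2.83 in WT (SD, n = 5), and Ighv8-5 11.1 ± 1.81 and 2.15 ± 1.44 CPM. The 98 other peaks of the locus together read 736, 754, 780, 848 and 805 CPM in KO and 565, 659, 575, 630 and 590 in WT, so these too did not overlap, at a ratio of 1.30. Beside this, Cr2 was the only B cell marker gene with a promoter peak. Its promoter was higher in KO by its median (11.2 against 5.83 CPM) and its mean (8.99 against 5.91 CPM). The ranges overlapped (4.37 to 12.5 and 4.62 to 6.93 CPM). The 5 peaks of the B cell list reaching the lowest mean of an opened site had a median log2 ratio of -0.23. This lay towards lower in KO. The 2 Igk peaks read 1.39 ± 1.48 and 2.76 ± 3.35 CPM. The part of B cells in the difference was not tested. Trb, with 29 peaks and no opened site, had 364 ± 17.01 and 351 ± 13.7 CPM.

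Opened sites overlapping the RefSeq T cell receptor alpha gene were annotated to the neighbouring gene Dad1. The first lies within the span of the V segments and the other beyond it, and both were highest in 1 library. KO library Sample_2269_KO read 29.0 CPM at the first and 28.0 CPM at the other, while the other KO libraries read 4.38 to 12.4 and 3.03 to 9.46 CPM, and at both sites the groups overlapped.

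Some opened sites lay near genes of immune families that were not listed and were chosen after their values were seen. Family members without an opened site are not given here, so no share of a family can be read. The interferon response list had 1 opened site among 59 peaks. Its peaks reaching the lowest mean of an opened site had a median log2 ratio of -0.003. Near the SLAM family, Slamf7 had 17.4 ± 4.11 CPM in KO and 3.69 ± 1.40 in WT, and Cd84 10.9 ± 2.52 and 4.92 ± 1.40 CPM. Near interferon-inducible genes, Gvin1 had 20.7 ± 1.66 and 4.11 ± 1.47 CPM, Slfn1 13.6 ± 1.34 and 3.67 ± 0.916 CPM, and a site over the start of Ifi47 11.5 ± 3.10 and 3.03 ± 1.57 CPM. At Ifih1, an RNA sensor of viral infection, the groups overlapped (10.2 ± 2.53 and 5.03 ± 2.38 CPM). Pik3r1, a regulatory subunit of phosphoinositide 3-kinase, had 2 intronic sites with ratios of 2.97 and 2.39.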
